A study of Sus scrofa with 13 samples.

Results

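The activin, inhibin and follistatin axis was examined in infarcted pig hearts through the 9 genes INHA, INHBA, INHBB, FST, FSTL1, FSTL3, ACVR1, ACVR2A and ACVR2B. Members were all probe sets that the platform annotation assigns to 1 of these symbols, which gave 13 of the 23999 non-control probe sets on the array. They cover 8 of the 9 genes, and no probe set carried the symbol FSTL1, so that gene was not analysed here. The axis was selected on the measured contrast of the study's groups, because INHA and FSTL3 were among the probe sets with the lowest p-values, so their differences between groups are given as a description and not as a test.

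RNA came from myocardial drill biopsies of 13 female Sinclair miniswine, operated on at 3 months of age, given an infarct by permanent ligation of diagonal coronary branches. The stem cell group (n = 7) then received 50000000 cells, named MPCs in the protocol, in 2 ml saline, 10000000 of them at each of 5 places in the border zone of the infarct. The saline group (n = 6) received 2 ml saline at 5 similar places. Biopsies were taken at month 4 and each animal gave 1 Affymetrix array, so both groups carried an infarct, and precision is limited by how few arrays there are. The position of each biopsy relative to infarct and injection sites was not given, and the labels name no batch.

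Activins are dimers of beta chains, encoded by INHBA and INHBB, and belong to the TGF-beta superfamily. They bind the type II receptors ACVR2A and ACVR2B, which then activate a type I receptor, and the signal passes to the nucleus through SMAD proteins. Inhibins pair a beta chain with the alpha chain encoded by INHA and oppose activin by occupying the type II receptors. Follistatin (FST) and follistatin-like 3 (FSTL3) are secreted proteins that wrap around activin and keep it from its receptors. In the heart FSTL3 and activin A are known as proteins that increase with injury and overload.

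The arrays measured heart muscle. All 8 cardiomyocyte markers with a probe set (MYH7, TNNT2, TNNI3, ACTN2, MYL2, MYL3, RYR2 and CKM) lay above the intensity filter. Their mean log2 intensity ranged from 13.66 to 13.96 after stem cells and from 13.65 to 13.87 after saline. Of the 6 smooth muscle and pericyte markers with a probe set 6 passed the filter, and their average had a mean ± SD of 9.52 ± 0.60 in the 7 stem cell animals, range 8.52 to 10.20, against 9.99 ± 0.43 in the 6 saline animals, range 9.54 to 10.67. Of 6 macrophage and monocyte markers 6 passed, with means of 6.28 ± 0.43 (SD, n = 7), range 5.74 to 6.88, and 6.71 ± 0.35 (SD, n = 6), range 6.32 to 7.30. EF1A has control probe sets at its 3′ and 5′ ends, whose log2 ratio increases as RNA degrades. This EF1A ratio averaged 0.815 ± 0.11 in stem cell animals (SD, n = 7) against 0.947 ± 0.098 in saline animals (SD, n = 6). The GAPDH ratio averaged 0.535 ± 0.36 and 0.522 ± 0.33, and the actin ratio 2.89 ± 1.1 and 3.13 ± 0.74, in the same order (SD). Of these ratios only that of EF1A was used as a covariate below. Whether RNA quality differed between the groups was not tested. The part of the macrophage markers in the differences below was not tested.

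Most members gave weak signals. The filter kept probe sets whose mean log2 intensity over the 13 arrays lay above 3.36, the 40th percentile, and 7 of the 13 member probe sets, from 6 genes, passed it. The probe sets of INHA, INHBA, FSTL3, FST, ACVR1 and ACVR2A that passed were brighter on 13 of 13 arrays than every tag control, a control that matches no pig transcript. The filter lies above the highest mean of a tag control, 2.58, so for these probe sets the comparison adds little to passing the filter. Both INHBB probe sets and the single ACVR2B probe set fell below the filter, as did 1 probe set each of FST, FSTL3 and ACVR2A. Where a gene has 2 probe sets, A denotes the brighter. Intensities of different probe sets depend on their sequences, so no member's level was ranked against another's.

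**Figure D1:**
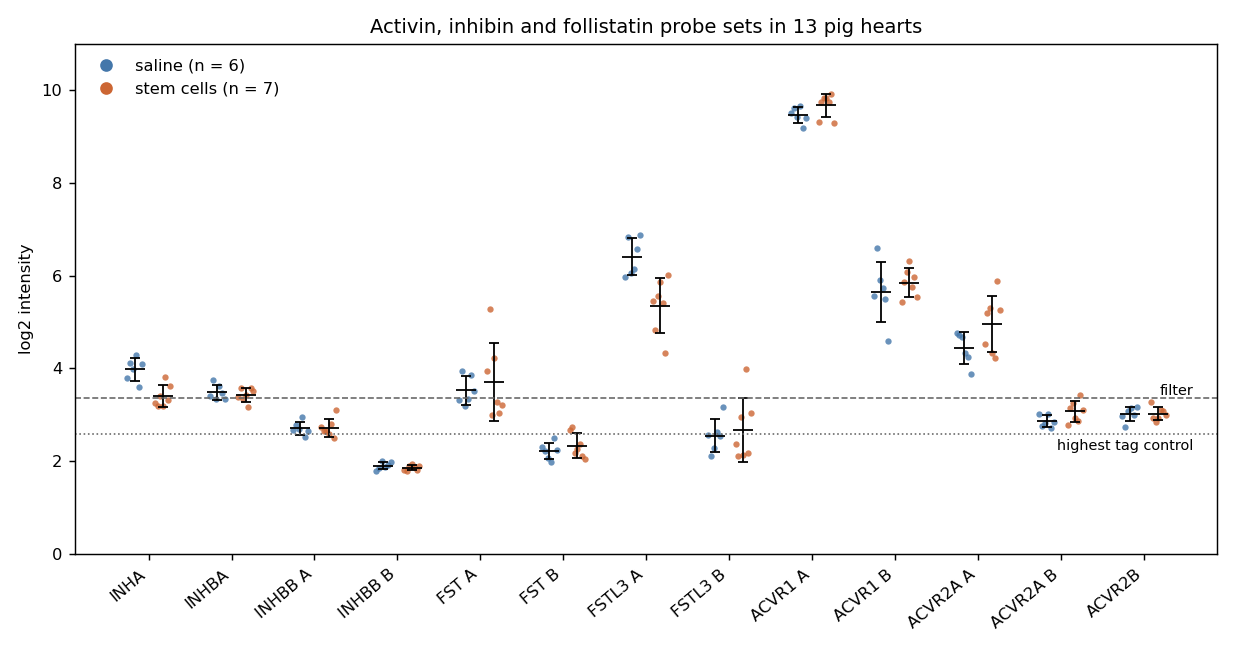
Log2 intensity of the 13 member probe sets in each animal (points), with the group mean and SD (black bars), for saline (n = 6) and stem cells (n = 7). The dashed line is the filter at 3.36 and the dotted line the highest mean of a tag control, 2.58; INHA lies near the filter, and FSTL3 A has the greatest difference between group means.

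Among the ligand chains, INHA, the alpha chain that makes a dimer an inhibin, was lower after stem cells. The log2 intensity of its probe set (target NM_214189) ran from 3.18 through a median of 3.31 to 3.82 in the 7 stem cell animals, and from 3.61 through 4.03 to 4.29 in the 6 saline animals. Every one of the 7 treated animals was under the saline mean and 5 of them were below every saline animal, while stem cells replicates 5 and 7, at 3.82 and 3.62, fell within the saline range. The means were 3.40 ± 0.24 (SD, n = 7) and 3.98 ± 0.25 (SD, n = 6), a log2 difference, stem cells minus saline, of -0.58 ± 0.13 (SE) with a 95% interval from -0.86 to -0.30. On the linear scale the stem cell level was 0.668 of the saline level, at intensities of 10.5 and 15.8. These are small signals: the INHA probe set lay at percentile 47.5 of mean intensity. The INHA difference ranked 8 by p-value among the 14399 probe sets that passed the filter. In biopsies of whole tissue, fewer cells of a type and less RNA per cell cannot be told apart.

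INHBA, the beta A chain of activin A, had close means in both groups. Its log2 intensity ran from 3.17 through 3.43 to 3.58 after stem cells and from 3.34 through 3.44 to 3.74 after saline, ranges that overlapped. The difference was -0.061 ± 0.093 (SE), with a 95% interval from -0.26 to 0.14. INHBB, the beta B chain of activin B, had values of 2.49 to 3.09 after stem cells and 2.52 to 2.94 after saline on probe set A, and 1.78 to 1.94 and 1.78 to 2.00 on probe set B. Probe set A was brighter than all tag controls on 10 of 13 arrays and probe set B on 0 of 13, so on probe set B INHBB was not detectable above this background. The INHBB differences were 0.0014 ± 0.091 and -0.044 ± 0.045 (SE). Whether the INHA difference departs from those of INHBA and INHBB was not tested.

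The follistatin family held the member with the greatest difference. FSTL3, the secreted activin antagonist, had log2 intensities on probe set A (target BI467833) from 4.34 through 5.45 to 6.03 after stem cells and from 5.98 through 6.37 to 6.87 after saline. A single stem cell animal, replicate 7 at 6.03, lay above the lowest saline animal, replicate 1 at 5.98, and the other 6 lay below every saline animal. The means were 5.36 ± 0.59 (SD, n = 7) and 6.41 ± 0.40 (SD, n = 6), a log2 difference of -1.06 ± 0.27 (SE), with a 95% interval from -1.63 to -0.49. The FSTL3 level after saline was 2.08 times that after stem cells, at intensities of 85.3 and 40.9. Its rank by p-value was 40 of 14399.

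The other FSTL3 probe set did not show this difference. On probe set B (target AW345555) the log2 intensities ran from 2.11 through 2.37 to 3.98 after stem cells and from 2.11 through 2.56 to 3.17 after saline, and the difference was 0.13 ± 0.26 (SE), turning to -0.086 without stem cells replicate 5. It was brighter than all tag controls on 6 of 13 arrays only, against 13 of 13 for probe set A. After removal of the group means, FSTL3 A and B correlated across the 13 animals with r = 0.33, given as a description. The statement that FSTL3 was lower after stem cells therefore rests on 1 probe set.

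FST, follistatin itself, had its highest value in a single stem cell animal. On probe set A (target NM_001003662) the stem cell animals ran from 2.99 through 3.28 to 5.29 and the saline animals from 3.19 through 3.44 to 3.95. Stem cells replicate 2 had the highest value, 5.29, and replicate 4 the next, 4.22, and 2 stem cell animals lay below every saline animal. The SD was 0.84 (n = 7) after stem cells, 0.51 (n = 6) without replicate 2, and 0.31 (n = 6) after saline; the difference in spread was not tested. The FST difference was 0.18 ± 0.32 (SE), with a 95% interval from -0.49 to 0.85, and it turned to -0.086 without stem cells replicate 2. With the EF1A 3′ to 5′ ratio as a covariate, an alternative chosen after seeing the data, FST A was at 0.66 ± 0.33 (SE). FST probe set B (target CO946381), under the filter, was brighter than all tag controls on 2 of 13 arrays only. It was also highest in stem cells replicate 2, at 2.74, and differed by 0.12 ± 0.11 (SE). The FST B value was 0.054 without stem cells replicate 2, 0.066 without replicate 1, 0.073 without saline replicate 4, 0.28 ± 0.12 (SE) with the EF1A covariate and -0.0048 with a floor at the 20th percentile. FST A and B correlated with r = 0.74 after removal of the group means (13 animals, a description).

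Among the receptors, ACVR2A, a type II receptor that binds activin first, had the highest values in stem cell animals on both of its probe sets. On probe set A (target AF303657) the log2 intensity ran from 4.22 through 5.20 to 5.89 after stem cells and from 3.89 through 4.51 to 4.77 after saline. In 4 of 7 stem cell animals the ACVR2A value exceeded every saline animal, and the other 3 lay within the saline range. The difference was 0.52 ± 0.26 (SE), with a 95% interval from -0.031 to 1.07 that includes 0. On probe set B (the same target), under the filter, 4 of 7 stem cell animals again exceeded every saline animal, and the difference was 0.21 ± 0.10 (SE), with an interval from -0.0032 to 0.42. ACVR2A A and B moved together across animals, with r = 0.78 after removal of the group means (a description). Without stem cells replicate 6, which was the highest on both, the differences were 0.37 and 0.15. With the EF1A ratio as a covariate they were 0.37 ± 0.32 and 0.17 ± 0.13 (SE).

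ACVR2B, the other type II receptor, showed no such pattern on its single probe set (target NM_001005350), where the values ran from 2.85 to 3.29 after stem cells and from 2.75 to 3.16 after saline. Its difference was 0.0065 ± 0.086 (SE) and the 95% interval ran from -0.18 to 0.19. The probe set lay under the filter but above all tag controls on 13 of 13 arrays.

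ACVR1, a type I receptor of the superfamily also known as ALK2, lay at percentile 92.1 of mean intensity on probe set A (target BQ597961). Its log2 intensity ran from 9.29 through 9.75 to 9.92 after stem cells and from 9.19 through 9.47 to 9.66 after saline. For ACVR1, 5 of 7 stem cell animals exceeded every saline animal, while replicates 1 and 7 lay within the saline range. The difference was 0.20 ± 0.14 (SE), with a 95% interval from -0.098 to 0.51, and 0.076 ± 0.17 with the EF1A ratio as a covariate. On ACVR1 probe set B (target CF366508) the difference was 0.20 ± 0.26 (SE). Leaving out saline replicate 2, the highest animal, gave 0.39, and leaving out saline replicate 6, the lowest, gave -0.012. It was -0.19 ± 0.27 with the EF1A covariate.

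By limma's moderated test with Benjamini-Hochberg adjustment, 0 of the 7 member probe sets above the filter passed an adjusted p of 0.05, against 0 of all 14399 tested (0%); the smallest adjusted p over all probe sets was 0.393. At an unadjusted p under 0.05 the count was 2 of 7 members, INHA and FSTL3 A, both lower, beside 10.5% of all probe sets tested, 5.15% in the lower and 5.4% in the higher direction. Since this contrast chose the members, nothing is read from that count. The groups overlapped for all 13 member probe sets, and they failed to overlap for 40 probe sets, 0.278% of those tested. The median log2 difference was 0.18 over the 7 member probe sets and 0.017 over all probe sets tested, and 3 of the 7 were negative, against 47.2% of all.

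**Figure D2:**
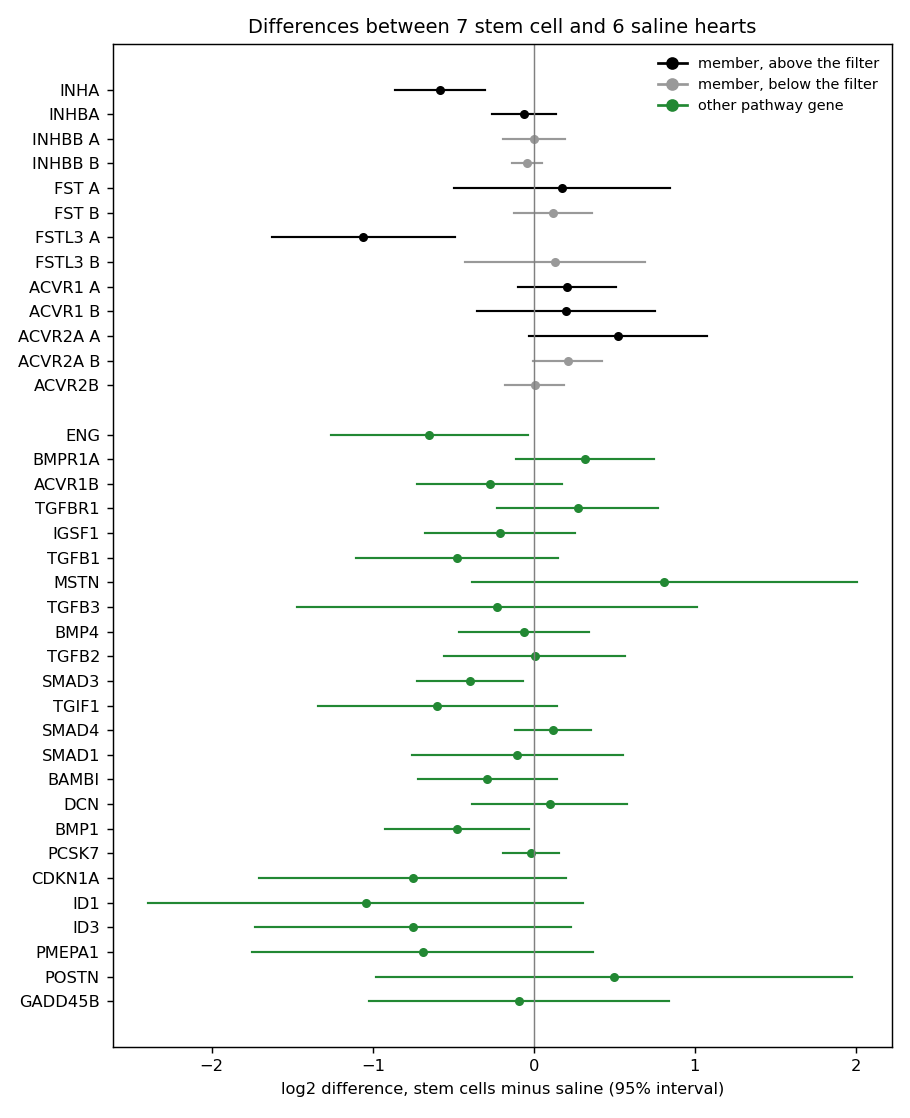
Log2 difference, stem cells minus saline, with its 95% interval, for the 13 member probe sets (black above the filter, grey below) and for 24 other pathway genes (green). The intervals of INHA and FSTL3 A lie below 0, those of ENG, SMAD3 and BMP1 do so as well, the interval of FSTL3 B spans 0, and the ACVR2A and ACVR1 values lie above 0 with intervals that include it.

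The members could also be set against each other within the groups, a measure that the choice of genes did not use. Each gene's log2 values were centred on the mean of its group, and Pearson's r and Spearman's rho were computed over the 13 animals, with permutation of animals within groups. Of the 15 pairs of the 6 genes above the filter, 0 passed an adjusted p of 0.05, whether by r or by rho. INHA and FSTL3 had r = 0.23 and rho = 0.24 (permutation p of 0.472 and 0.449, adjusted 0.824 and 0.748). Without the 2 animals farthest from the INHA median r was 0.28. Within the saline group it was 0.11 and within the stem cell group 0.31 (exact permutation p of 0.794 and 0.520). FSTL3 and ACVR2A had the most negative r, -0.54, with rho = -0.31 (permutation p of 0.0931 and 0.364, adjusted 0.665 and 0.748), and r was -0.10 without stem cells replicates 2 and 6. INHBA and ACVR2A had the most positive r, 0.53, with rho = 0.35 (permutation p of 0.0719 and 0.252, adjusted 0.665 and 0.729), and 0.30 without saline replicate 2 and stem cells replicate 5.

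FSTL3 varied with the smooth muscle and pericyte markers from animal to animal. Over the 13 animals, with group means removed, FSTL3 A and the mean of 6 such markers correlated with r = 0.93 (permutation p of 0.00012, adjusted 0.00576 over 48 pairs of a member gene and a marker list). Spearman's rho was 0.84 and did not pass (permutation p of 0.00186, adjusted 0.0893). Within the groups r was 0.93 in the 6 saline animals and 0.93 in the 7 stem cell animals (exact permutation p of 0.00694 and 0.00595, adjusted 0.233 and 0.286). The smallest exact permutation p that 6 animals allow is 0.00139, which over 48 pairs comes to 0.0667 for a single leading pair, so the adjusted value within saline says little. Without stem cells replicates 2 and 6, the animals farthest from the marker median, r was 0.82 (permutation p of 0.00725, adjusted 0.348). This value did not pass. Leaving out the most extreme animals also narrows the marker range and lowers the number of animals. What part those 2 animals had in passing the adjustment therefore cannot be read from it. With any 1 animal left out r lay between 0.89 and 0.96.

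Before removal of the group means, the same animals lay at the ends of both measures. These values include the contrast that chose FSTL3, so they are given as a description. Stem cells replicate 6 had the lowest marker mean, 8.52, and the lowest FSTL3, 4.34, and replicate 2 came next in both, at 8.90 and 4.83. Saline replicates 2 and 6 had the highest marker means, 10.67 and 10.33, and the highest FSTL3, 6.85 and 6.87. With group means removed, stem cells replicates 6 and 2 were still the lowest in both, but the upper ends differed. The highest centred marker mean was that of stem cells replicate 4, 0.68, and the highest centred FSTL3 that of stem cells replicate 7, 0.67. With the marker mean as a covariate, an alternative chosen after seeing the data, the FSTL3 difference went from -1.06 to -0.64 ± 0.16 (SE) and that of INHA from -0.58 to -0.52 ± 0.14. The ACVR2A difference went from 0.52 to 0.26 ± 0.25 on probe set A and from 0.21 to 0.12 ± 0.10 on probe set B. The marker mean itself was 0.47 lower after stem cells, with a negative difference for 4 of its 6 genes.

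**Figure D3:**
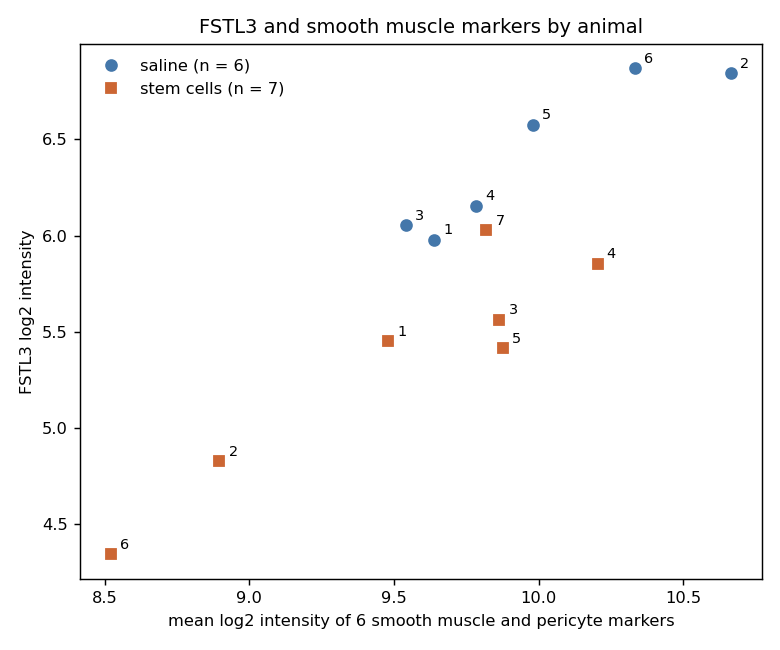
FSTL3 log2 intensity (probe set A) against the mean log2 intensity of 6 smooth muscle and pericyte markers, 1 point per animal labelled with its replicate number, for saline (circles, n = 6) and stem cells (squares, n = 7). FSTL3 increases with the marker mean in both groups (r = 0.93 in each).

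The markers did not contribute evenly. CNN1 (calponin), TAGLN (transgelin) and PDGFRB, the pericyte and mesenchymal PDGF receptor, had r of 0.89, 0.87 and 0.78 with FSTL3, while MYL9 and ACTA2 (smooth muscle actin) had 0.54 and 0.45 and the pericyte gene RGS5 had -0.43. These 6 values are given as a description. The differences between the groups were -1.54 ± 0.69 for CNN1, -0.88 ± 0.21 for MYL9, -0.34 ± 0.47 for TAGLN, -0.17 ± 0.29 for PDGFRB, 0.077 ± 0.30 for ACTA2 and 0.052 ± 0.13 (SE) for RGS5. With CNN1 and MYL9 removed from the list r was 0.80 (adjusted permutation p of 0.102, an alternative chosen after seeing the data). FSTL3 probe set B correlated with the list at r = 0.35.

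None of the other 47 pairs of a member gene with a marker list passed the adjustment. FSTL3 and the 5 endothelial markers above the filter had r = 0.69 and rho = 0.77 (permutation p of 0.0194 and 0.00599, adjusted 0.323 and 0.144), and 0.61 without saline replicate 2 and stem cells replicate 2. FST had r = 0.57 and rho = 0.71 with 6 macrophage and monocyte markers (permutation p of 0.0603 and 0.0147, adjusted 0.572 and 0.236), falling to 0.45 without saline replicate 2 and stem cells replicate 3. INHA had no r above 0.48 with any list, the highest being with the red blood cell genes HBB and ALAS2 (permutation p of 0.121, adjusted 0.572; rho = 0.48, permutation p of 0.118, adjusted 0.504; 0.51 without saline replicate 3 and stem cells replicate 7). INHA is best known from gonads and adrenal glands. Of 6 markers of steroid-producing cells, CYP11A1, CYP17A1, STAR and HSD3B1 lay below the filter and CYP19A1 and NR5A1 just above it. ACVR1 had its most negative r, -0.64, with those last genes (rho = -0.55; permutation p of 0.0202 and 0.0629, adjusted 0.323 and 0.412; -0.58 without saline replicates 2 and 5).

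**Figure D4:**
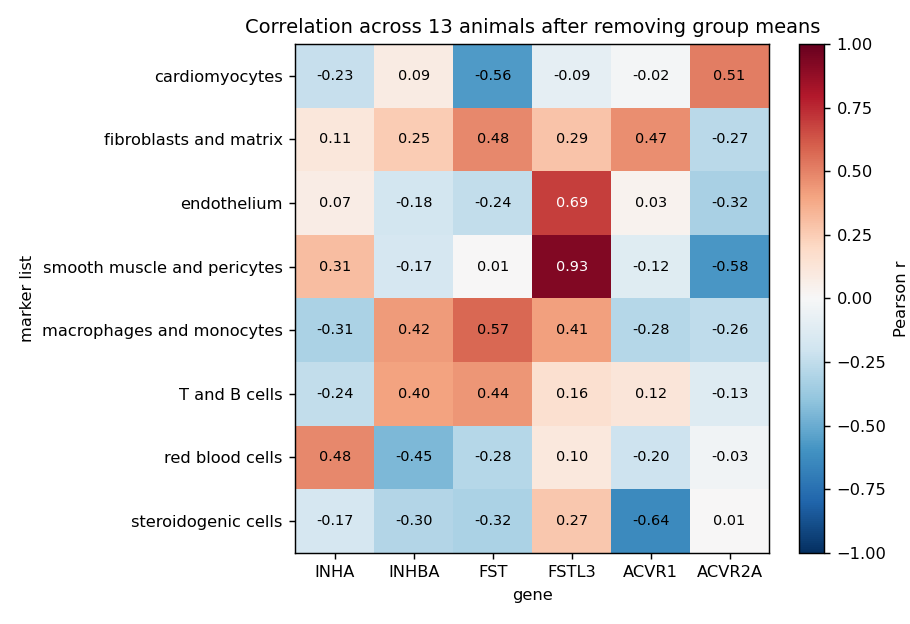
Pearson r across 13 animals, after removal of group means, between 6 member genes (columns) and the mean of 8 marker lists (rows); the colour runs from blue (negative) to red (positive). FSTL3 with smooth muscle and pericyte markers, at 0.93, is the pair that passed the adjustment over 48 pairs.

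The genes whose within-group pattern was most like that of INHA and FSTL3 were sought among 6884 probe sets with 1 symbol, by r of group-centred values over 13 animals, as a description. For FSTL3 they were SLC39A1 (r = 0.90), ATP1B1 (0.90), CNN1 (0.89), CCND2 (0.88) and GYS1 (0.88). SLC39A1 is a zinc transporter, ATP1B1 a subunit of the sodium pump, CCND2 a cyclin of the G1 phase and GYS1 the glycogen synthase of muscle. The differences between the groups were -0.15 ± 0.15 for SLC39A1, -0.26 ± 0.14 for ATP1B1, -1.54 ± 0.69 for CNN1, -0.85 ± 0.32 for CCND2 and -0.81 ± 0.23 (SE) for GYS1. For INHA they were PTGFRN (0.86), C12H17orf62 (0.85), PCBP4 (0.84), FLAD1 (0.84) and FGD1 (0.83), with differences between -0.19 and 0.16. The INHA and FSTL3 lists shared no gene, and leaving out the 2 animals farthest from the median lowered the r of SLC39A1 to 0.70 and of CCND2 to 0.64.

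The rest of the signalling pathway was read from 6 gene lists. Of 86 genes listed 31 had a probe set and 24 passed the filter, of which 17 had a negative difference and 7 a positive one. By limma 0 passed an adjusted p of 0.05, against 0% of all probe sets, and 3 of 24 were lower and 0 higher at an unadjusted p under 0.05, beside 5.15% lower and 5.4% higher among all probe sets tested. Negative differences made up 47.2% of all probe sets tested. The median difference over the 24 genes was -0.22, against 0.017 over all probe sets tested. The lists were chosen with earlier results of these data known. Their counts and medians are therefore a description and not a test.

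The list of type I receptors, co-receptors and type II relatives counted 5 tested genes of 13, namely ENG, BMPR1A, ACVR1B, TGFBR1 and IGSF1. No type II relative was among those tested. The median was -0.21, the value of IGSF1, and it was -0.10, -0.11 and -0.13 without saline replicate 3, 4 and 5. ENG (endoglin), an endothelial co-receptor, was at -0.65 ± 0.29 (SE; limma adjusted p of 0.458), and lower than the saline mean in 7 of 7 treated animals. BMPR1A, a BMP receptor, was at 0.32 ± 0.20 (adjusted p of 0.581). ACVR1B, also known as ALK4 and the main type I receptor of activin, was at -0.28 ± 0.21 (adjusted p of 0.642). None of these receptors rose or fell by the adjusted test.

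Other ligands of the superfamily counted 5 tested genes of 20, namely MSTN, BMP4, TGFB1, TGFB2 and TGFB3. Their median was -0.060 and turned positive, to 0.10, without saline replicate 2. It is not a median of ligands of the activin type II receptors alone. MSTN (myostatin), a close relative of activin that binds the same type II receptors, was at 0.81 ± 0.56 (SE; adjusted p of 0.611). Its value in stem cells replicate 6 was 7.48, and the next stem cell animal was at 4.67. TGFB1 and TGFB3 were at -0.48 ± 0.29 and -0.23 ± 0.58 (adjusted p of 0.575 and 0.906).

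Among SMADs and their cofactors 4 of 15 genes were tested, with a median of -0.25 that was -0.16 without saline replicate 2 and -0.10 with the filter at the 60th percentile. SMAD3, which carries activin and TGF-beta signals, was at -0.40 ± 0.15 (SE; adjusted p of 0.423), and lower than the saline mean in 7 of 7 treated animals. Its probe set lay near the filter, at 3.20 ± 0.11 in stem cell animals (SD, n = 7) and 3.59 ± 0.44 in saline animals (SD, n = 6), and saline replicate 6 stood out at 4.45. TGIF1, a repressor of SMAD-driven transcription, was at -0.60 ± 0.35 and SMAD4, the shared partner of the other SMADs, at 0.12 ± 0.11 (adjusted p of 0.558 and 0.706).

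SMAD-responsive genes had a median of -0.72 over 6 tested genes of 14, with 5 of 6 negative. The count of signs depends on the probe set used, here the brightest. GADD45B was at -0.091 ± 0.44 on that probe set and at 0.16 ± 0.46 (SE) on another above the filter. POSTN was at 0.50 ± 0.69 and -0.12 ± 0.19 in the same order. PMEPA1 was at -0.69 ± 0.50 on the brightest, and at -0.34 ± 0.47 and 0.12 ± 0.23 on others. The cell cycle inhibitor CDKN1A and the BMP targets ID1 and ID3 were at -0.75 ± 0.45, -1.04 ± 0.63 and -0.75 ± 0.46 (SE; adjusted p of 0.565, 0.572 and 0.574). Each was below the saline mean in 6 of 7 stem cell animals, and none passed. The list median was -0.34 without stem cells replicate 6, -0.34 with array weights, -0.46 with the EF1A covariate and -0.062 with the smooth muscle marker mean as a covariate.

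Of the processing proteases and the other antagonists few were measured. BMP1, a protease that trims procollagen and releases some ligands from their binding proteins, was at -0.48 ± 0.21 (SE; adjusted p of 0.455), and PCSK7, a convertase, at -0.018 ± 0.082 (adjusted p of 0.949). BAMBI, a decoy receptor, was at -0.29 ± 0.20 and decorin (DCN), a matrix proteoglycan that binds TGF-beta, at 0.099 ± 0.23 (adjusted p of 0.615 and 0.894).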

How the data were processed

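Total RNA from 13 hearts was labelled and hybridised to porcine Affymetrix arrays, per the labels. The authors deposited 1 linear intensity per probe set and array; the submitters' processing notes name GCRMA, whose version and settings were not found in the labels or headers. Normalization between arrays hides a change shared by most genes. Of 24123 probe sets 124 controls were left out, and 23999 were put on the log2 scale. Symbols came from the platform annotation (10069 probe sets with 1 symbol, 198 with several, 13732 with none). No build is stated for the array, so no coordinates are given.

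Probe sets with a mean log2 above the 40th percentile (14399) were tested with limma 3.58.1 under R 4.3.3 (lmFit, eBayes with trend, Benjamini-Hochberg, threshold 0.05); members below the filter come from the same fit with no filter. Correlations used 100000 permutations within groups. In lists, a gene was represented by its brightest probe set. The scripts were tested on simulated data. Members and lists were chosen with earlier results of these data known. Named genes were all members, the 3 smallest p in each list, and the 5 genes most like INHA and FSTL3. Some other list genes are named to show what a list held or where probe sets of a gene differed in sign. Nothing in the labels says whether animals shared a litter or day. Alternatives were other filters, normalizations, a floor, weights, covariates, a replicate block, other variance models and leaving out each animal. Replicate numbers 1 to 6 occur in both groups and were not taken as pairs: same-numbered animals correlated at -0.27 to 0.24 in their deviations from group means.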

Additional observations from a re-analysis of the deposited data

Results flagged for a closer look

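Groups of values were checked for a single animal far from the others. They came from the members, the marker lists and, in each pathway list, up to 3 genes with the smallest p. Of 74 such groups 4 held such an animal, and chance alone gives about 1 in 20. MSTN was at 7.48 in stem cells replicate 6, with the next animal of that group at 4.67. CDKN1A was at 4.43 in the same animal, the lowest, with the next at 6.28. SMAD3 was at 4.45 in saline replicate 6, with the next at 3.64, and BAMBI at 4.69 in saline replicate 2, with the next at 4.29. No member probe set was among them.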

How the results depend on the processing

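INHA and FSTL3 A kept a negative difference under every alternative that gave a value. Both were chosen on this contrast in these same arrays, so the kept sign is a description and not a test. The INHA difference lay between -0.66 and -0.52 with 1 animal left out and between -0.69 (EF1A covariate) and -0.52 (smooth muscle covariate) otherwise; it was not tested with the filter at the 60th percentile, which its probe set did not pass. FSTL3 A lay between -1.17 and -0.89 with 1 animal left out, at -0.80 with array weights and at -0.64 with the smooth muscle covariate. The count of probe sets past an adjusted p of 0.05 ranged from 0 to 1 with 1 animal left out: without saline replicate 5, HIGD1B passed at -0.72 ± 0.092 (SE; limma adjusted p of 0.0222). It was 0 under all other alternatives, with 622 (1 probe set per gene) to 2103 (no filter) probe sets at an unadjusted p under 0.05. With the replicate block, in which stem cells replicate 7 adds nothing to the difference, INHA was at -0.62 ± 0.16, FSTL3 A at -1.17 ± 0.32 and ACVR2A A at 0.47 ± 0.28 (SE), and the block changed no call. The median of the other superfamily ligands moved to -0.36 with the EF1A covariate. With 1 animal left out it ran from -0.18 to 0.10, and it was 0.013 with the smooth muscle covariate. The median of the other antagonists turned positive, to 0.028, without saline replicate 2, 0.099 with the stricter filter, which left DCN only, and 0.060 with the smooth muscle covariate. The correlation of FSTL3 with smooth muscle markers kept its sign throughout. It did not pass over 48 pairs by Spearman (rho = 0.84, adjusted p of 0.0893), without the 2 animals farthest from the median (r = 0.82, adjusted 0.348), or within stem cells (r = 0.93, adjusted 0.286), all by permutation, and those settings left 0 pairs. Within saline (r = 0.93, adjusted exact permutation p of 0.233; 0 pairs) a single leading pair of 6 animals could not have passed. Without CNN1 and MYL9 r was 0.80 (adjusted permutation p of 0.102), and the other pairs were not recomputed. Quantile normalization again left 1 pair. Without group centring, 0 of the 5 genes most like INHA and 2 of the 5 most like FSTL3 (CCND2 and GYS1) were shared. Signals near the tag controls limit INHBB, FST B and FSTL3 B. Weak signals near or below the filter limit INHA, INHBA, FST A, ACVR2A B and ACVR2B.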
